A study of Mus musculus with 10 samples.

Results

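The 8 genes Ifnar1, Ifnar2, Ifngr1, Ifngr2, Il10rb, Jak1, Jak2 and Tyk2 encode interferon receptor chains and the kinases bound to them. They were taken by name from the 23337 genes listed for each library, and all 8 passed the filter on low counts. RNA sequencing was done on 10 libraries from mouse embryonic fibroblasts (MEFs), a connective-tissue cell type taken from embryos and here immortalised for culture. They were labelled Slfn2 KO (the Schlafen gene Slfn2 knocked out) or Slfn2 WT (Slfn2 intact), and received mouse IFN-β, a type I interferon, at 5000 IU/ml for 6 h or no treatment. There were 2 KO-labelled libraries with IFN-β, 2 KO-labelled untreated, 3 WT-labelled with IFN-β and 3 WT-labelled untreated. The series' design text says only that the replicates of each genotype were plated. How the knockout was made and whether a culture is a clone are not given in the sources used here. Each p-value therefore measures the spread between libraries, which may be technical, and is not shown to cover independently derived lines.

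A type I interferon such as IFN-β is bound by Ifnar2, the high-affinity chain, together with Ifnar1. Tyk2 is bound to Ifnar1 and Jak1 to Ifnar2, and the activated kinases phosphorylate STAT proteins, of which Stat2 joins Irf9 in the transcription factor ISGF3. IFN-γ, the type II interferon, is bound by Ifngr1 with Jak1, while Ifngr2 brings Jak2. Il10rb is the chain shared by the receptors for type III interferons, IL-10, IL-22 and IL-26 (the last known from human). Fibroblasts are classical responders to types I and II.

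Ifnar2, Il10rb, Ifnar1 and Ifngr2 lie in this order on the plus strand of mouse chromosome 16 (GRCm38, GENCODE M21), within 192.841 kb. Ifnar2 spans chr16:91372783-91405589, Il10rb chr16:91406164-91425834, Ifnar1 chr16:91485238-91507441 and Ifngr2 chr16:91547072-91565623. Ifngr1 lies apart at chr10:19591949-19610229, Jak2 at chr19:29251828-29313080 (both plus strand), Jak1 at chr4:101152367-101265282 and Tyk2 at chr9:21104068-21131243 (both minus strand). All 8 are annotated as protein coding. A further annotated gene, Gm21970, overlaps the ends of Ifnar2 and Il10rb and is not among the listed symbols. Whether reads were counted by strand is not stated, so reads in the shared stretch may be split or lost.

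RefSeq promoter sequences (GRCm38.p6, 250 bases before to 50 after the annotated start) matched 7 of the 8 members, all but Il10rb. Those of Jak2 and Ifngr2 are shown because these genes carry the results for IFN-β and genotype, and that of Ifit1, a classical interferon-stimulated gene, because it holds the textbook ISGF3 element. All are on the plus strand: Jak2 at chr19:29251553-29251852, Ifngr2 at chr16:91546809-91547108 and Ifit1 at chr19:34640639-34640938. Capitals mark matches to 3 motifs searched on both strands: the core of the interferon-stimulated response element (ISRE), GAAANNGAAA, the gamma-activated site (GAS), TTCNNNGAA, and the κB element of NF-κB, GGGANNNNCC.
Jak2: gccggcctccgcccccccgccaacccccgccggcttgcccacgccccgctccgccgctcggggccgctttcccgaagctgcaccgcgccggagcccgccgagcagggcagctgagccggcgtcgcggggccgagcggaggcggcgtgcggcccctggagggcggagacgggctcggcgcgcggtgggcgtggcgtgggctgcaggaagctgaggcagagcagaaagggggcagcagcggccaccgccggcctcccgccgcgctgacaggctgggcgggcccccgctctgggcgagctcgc
Ifngr2: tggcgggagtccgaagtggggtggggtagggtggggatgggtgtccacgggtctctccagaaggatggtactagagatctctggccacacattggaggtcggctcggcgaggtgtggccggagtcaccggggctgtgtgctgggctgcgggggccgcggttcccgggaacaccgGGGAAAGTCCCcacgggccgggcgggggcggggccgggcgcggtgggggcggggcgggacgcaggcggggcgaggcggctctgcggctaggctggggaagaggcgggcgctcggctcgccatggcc
Ifit1: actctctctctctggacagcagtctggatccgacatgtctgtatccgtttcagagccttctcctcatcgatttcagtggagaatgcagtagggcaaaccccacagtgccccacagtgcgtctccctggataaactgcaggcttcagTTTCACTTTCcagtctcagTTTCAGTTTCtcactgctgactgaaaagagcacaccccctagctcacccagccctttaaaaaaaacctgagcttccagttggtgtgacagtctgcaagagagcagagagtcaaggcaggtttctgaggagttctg

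The Jak2 window, with 81% G or C, held none of the 3 motifs. The Ifngr2 window held 2 overlapping κB matches, 1 on each strand, starting at bases -76 and -75 from the start. The Ifit1 window held 2 ISRE matches in reverse orientation, starting at bases -104 and -85. Of the other members, Ifnar1 had a GAS match (TTCACGGAA, from base -5), Ifnar2 a GAS match (TTCCTGGAA, from base -214) and Tyk2 a κB match (GGGACGGACC, from base -30). The windows of Ifngr1 and Jak1 held none. Among all 32851 promoters, 3.44% held the ISRE core, 8.3% the GAS motif and 20.7% the κB motif, so a match or its lack in these windows is a description of letters only.

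The totals were 13565815 to 16329729 reads per library, and each member had 127 to 4106 reads in each library. Values are normalised read counts, that is reads divided by the size factor of the library. Slfn2 itself had 75.0 and 171 normalised reads with IFN-β and 46.1 and 34.9 untreated in the KO-labelled libraries, against 527, 449 and 573 with IFN-β and 18.7, 17.4 and 15.5 untreated in the WT-labelled ones. Transcripts of the targeted gene were thus present in every KO-labelled library, above all WT-labelled libraries when untreated and below them with IFN-β, so genotypes are named as labelled throughout. Which part of Slfn2 was deleted is not given in the sources used here. Ifit1, the check of the treatment, had 19381 and 17761 normalised reads with IFN-β and 23.1 and 114 untreated in KO-labelled libraries, against 26349, 26493 and 26910 with IFN-β and 309, 1236 and 881 untreated in WT-labelled ones. All 10 fibroblast markers were present and summed to 302100 to 479150 normalised reads in KO-labelled and 214390 to 314610 in WT-labelled libraries. Group means of Col1a1, Col1a2, Col3a1, Fn1, Thy1 and S100a4 were higher in KO-labelled cells in both treatments. Those of Pdgfra, Pdgfrb, Vim and Dcn were lower, with Dcn at 95.03 and 79.5 normalised reads on average in KO-labelled libraries (IFN-β and untreated) against 2158 and 1758 in WT-labelled ones. Macrophage markers summed to 145 to 204 normalised reads in KO-labelled and 258 to 419 in WT-labelled libraries, most of it Cd14, with 4 of 7 under the floor of 3 reads and Fcgr1 at 0. Lymphocyte, endothelial, epithelial and muscle markers summed to at most 20.2 in any library. Neural markers summed to 462 to 557 in KO-labelled and 613 to 1286 in WT-labelled libraries, nearly all of it Tubb3, with Sox10 at 0. The part of any of these differences in the results below was not tested.

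Divided by exon length, the member with the highest mean was Jak1 in each of the 4 groups, followed by Ifnar2. Over the 10 libraries Jak1 averaged 436 normalised reads per kb of exon, at the 82.7th percentile of the 11128 tested genes with a length, whose median was 112. Ifnar2 averaged 306, Ifnar1 222, Ifngr2 219.5, Ifngr1 207, Jak2 167, Il10rb 80.9 and Tyk2 49.3. Tyk2, the kinase of Ifnar1, stood lowest in the WT-labelled groups at 38.2 ± 12.2 (IFN-β) and 45.1 ± 14.2 (untreated) (SD, n = 3 each). In the KO-labelled groups the lowest was Il10rb at 39.6 ± 6.23 (IFN-β) and 53.7 ± 16.8 (untreated), whose libraries overlapped those of Tyk2, at 56.5 ± 23.1 and 65.0 ± 17.0 (SD, n = 2 each). Compared within a library, Tyk2 was above Il10rb in 2 of 2 libraries of each KO-labelled group. Ifnar1, Ifngr2 and Ifngr1 could not be ordered over the 10 libraries, since each overlapped the next. In untreated WT-labelled cells Ifngr2 (289 to 311 per kb) stood clear of Ifnar1 (209 to 286), and Ifngr1 (201 to 209.8) clear of Jak2 (105 to 142), while Jak1 and Ifnar2, Ifnar2 and Ifngr2, Ifnar1 and Ifngr1, and Jak2 and Il10rb overlapped. Compared within a library, Jak2 was above Il10rb in each of these 3 and in all 10 libraries. In untreated KO-labelled cells Ifnar2 (226 to 253) and Ifngr1 (195 to 279) also overlapped, and Ifnar2 was above Ifngr1 in 1 of 2 libraries.

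**Figure D1:**
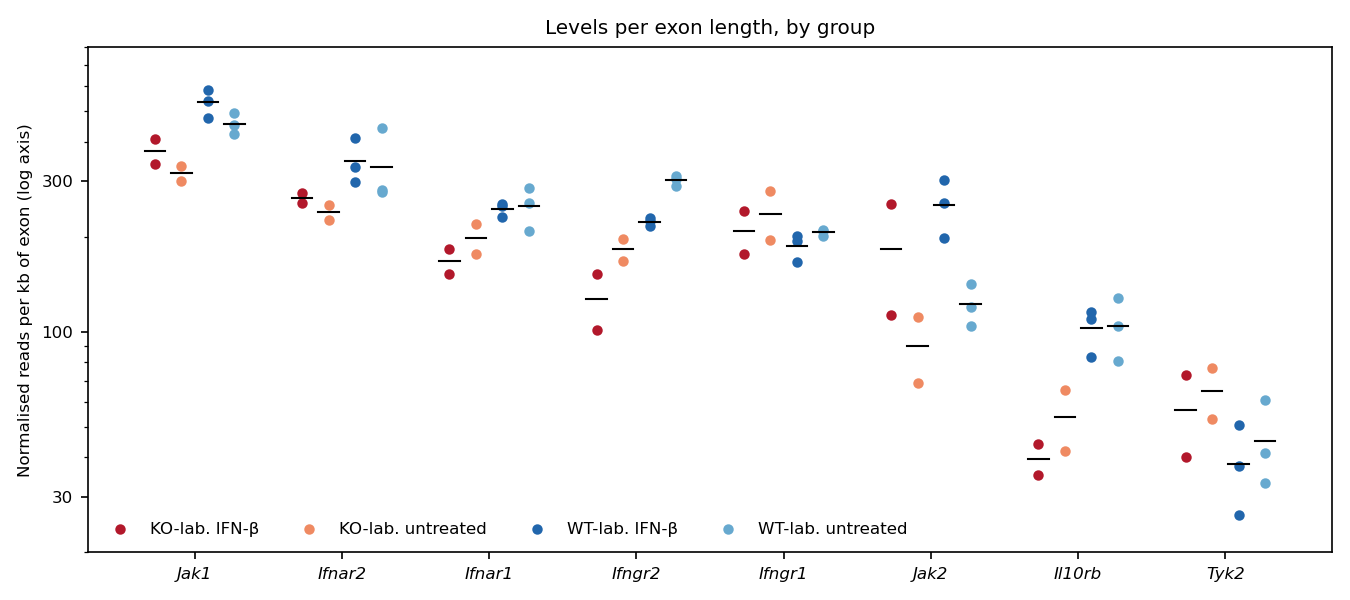
Normalised reads per kb of exon (log axis) for the 8 genes, each dot a library and each bar the group mean, with KO-labelled groups left of WT-labelled ones. Jak1 has the highest group means and Tyk2 or Il10rb the lowest in every group.

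Ratios between partner chains are given as values, with no test. The ratio of Ifngr2 to Ifngr1 per kb, the accessory chain over the ligand-binding chain of the IFN-γ receptor, was 0.601 ± 0.0412 with IFN-β and 0.784 ± 0.11 untreated in KO-labelled libraries (SD, n = 2 each), against 1.2 ± 0.0906 and 1.46 ± 0.0844 in WT-labelled libraries (SD, n = 3 each). Every KO-labelled library (0.572 to 0.862) lay below every WT-labelled one (1.11 to 1.55). For Ifnar1 over Ifnar2 the ratio was 0.63 ± 0.0511 with IFN-β and 0.825 ± 0.0643 untreated in KO-labelled libraries, against 0.716 ± 0.115 and 0.783 ± 0.227 in WT-labelled ones, and the genotypes overlapped. Jak2 over Jak1 was 0.513 ± 0.334 with IFN-β against 0.288 ± 0.118 untreated in KO-labelled libraries, and 0.48 ± 0.123 against 0.269 ± 0.0521 in WT-labelled ones. Tyk2 over Jak1 was 0.156 ± 0.0822 with IFN-β and 0.207 ± 0.0697 untreated in KO-labelled libraries. In WT-labelled ones it was 0.0736 ± 0.0309 and 0.0995 ± 0.0336. The genotypes overlapped for it with IFN-β but not untreated (0.158 to 0.256 against 0.0671 to 0.134). How many other gene pairs separate the genotypes was not counted.

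Whether IFN-β altered its own receptor and kinases was asked within each labelled genotype. Jak2, the kinase of the IFN-γ receptor chain Ifngr2, was the member with the largest difference: it was about doubled in both genotypes, and passed the test only when libraries of the same replicate number were blocked. Ifngr2 was lower with IFN-β in every same-numbered pair but did not pass with or without the block. Neither chain of the IFN-β receptor passed, with or without the block. Without the block, 0 of 8 members passed in KO-labelled cells and 0 of 8 in WT-labelled cells (limma, adjusted p under 0.05), where 1.84% and 2.21% of the 12313 tested genes passed. At an unadjusted p under 0.05 there were 2 members in each genotype, Jak2 and Ifngr2, beside 599 (KO-labelled) and 748 (WT-labelled) of the 12313 genes. By adjusted p edgeR and DESeq2 likewise called 0 members. With the block, Jak2 alone passed in each genotype, as higher, where 3.48% and 4.95% of genes passed (3.37% and 4.68% higher). The median log2 fold change of the members was -0.21 in KO-labelled and -0.02 in WT-labelled cells, beside -0.03 over all tested genes in both.

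Jak2 had 568 and 1279 normalised reads with IFN-β, against 347 and 562 untreated, in KO-labelled libraries 1 and 2. In WT-labelled libraries 1, 2 and 3 it had 996, 1523 and 1292 with IFN-β, against 526, 604 and 713 untreated. The groups did not overlap in either genotype, but in KO-labelled cells the lower treated library was barely above the higher untreated one. In KO-labelled cells its log2 fold change was 0.95 ± 0.39 (SE), with an adjusted p of 0.855 without the block and 0.0442 with it (SE 0.2). In WT-labelled cells it was 1.04 ± 0.32, with an adjusted p of 0.264 without the block and 0.0074 with it (SE 0.17). Within a replicate number the difference was 0.71 and 1.19 in the 2 KO-labelled pairs and 0.86 to 1.33 in the 3 WT-labelled pairs. The blocked call in WT-labelled cells did not survive the loss of library 1 (adjusted p 0.0512) or 2 (0.0631) of WT-labelled IFN-β. The blocked call in KO-labelled cells was lost without any 1 of 7 libraries: KO-labelled IFN-β 2 (0.413), KO-labelled untreated 1 (0.217) or 2 (0.217), WT-labelled IFN-β 1 (0.077), 2 (0.103) or 3 (0.08) and WT-labelled untreated 3 (0.0799). The log2 fold change in KO-labelled cells stayed at 0.95 without each of these WT-labelled libraries, which are not part of that difference. It was 0.61 without KO-labelled IFN-β 2, and 0.93 and 0.96 without KO-labelled untreated 1 and 2. Over the 5 other settings the adjusted p was 0.403 to 0.881 in KO-labelled and 0.0617 to 0.274 in WT-labelled cells. In bulk RNA, fewer cells expressing a gene and less RNA per cell cannot be told apart, here and below.

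The partner kinase Jak1 had 2953 and 2455 normalised reads with IFN-β, against 2430.3 and 2173 untreated, in KO-labelled libraries, and 4229, 3900.0 and 3442 against 3569, 3071 and 3271 in WT-labelled ones. It was higher with IFN-β in all 5 same-numbered pairs, by 0.07 to 0.34 on the log2 scale. Its log2 fold change was 0.23 ± 0.16 (SE) in KO-labelled and 0.22 ± 0.13 in WT-labelled cells, with 95% intervals of -0.14 to 0.60 and -0.08 to 0.52, and the adjusted p was 1 in both. Tyk2 had 276 and 500.3 normalised reads with IFN-β, against 364 and 529 untreated, in KO-labelled libraries, and 180.2, 258 and 348 against 227, 284 and 417 in WT-labelled ones. Its groups overlapped in both genotypes, although each treated library was below the untreated one of its number. The log2 fold change of Tyk2 was -0.24 ± 0.42 in KO-labelled and -0.24 ± 0.34 in WT-labelled cells, with 95% intervals of -1.19 to 0.71 and -1.02 to 0.53.

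Among the receptor chains, Ifngr2 had 575 and 381 normalised reads with IFN-β, against 741 and 634 untreated, in KO-labelled libraries. In WT-labelled libraries it had 865, 815 and 844 with IFN-β, against 1089, 1152 and 1173 untreated. Treated and untreated libraries did not overlap in either genotype. In KO-labelled cells the difference was -0.55 ± 0.20 (SE) on the log2 scale, with an adjusted p of 0.646 (0.15 with the block), and -0.43 ± 0.17 in WT-labelled cells, with an adjusted p of 0.564 (0.125 with the block). Groups also did not overlap for Ifnar2 and Jak1 in KO-labelled cells, which with Jak2 and Ifngr2 makes 4 of 8 members, where 20.4% of tested genes did not overlap. In WT-labelled cells 2 of 8 members, Jak2 and Ifngr2, did not overlap, where 11.6% of genes did not.

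Ifnar1, the Tyk2-bound chain of the type I receptor, had 906 and 1087 normalised reads with IFN-β, against 1048 and 1309.6 untreated, in KO-labelled libraries, and 1369.7, 1509.6 and 1491 against 1244, 1523 and 1698 in WT-labelled ones. Its groups overlapped in both genotypes. Its log2 fold change was -0.24 (95% interval -0.68 to 0.20) in KO-labelled and -0.02 (-0.38 to 0.34) in WT-labelled cells. Ifnar2, the chain that binds IFN-β most tightly, had 855 and 915 normalised reads with IFN-β, against 754 and 843 untreated, in KO-labelled libraries, and 1111, 1374 and 993 against 939.9, 1474 and 926 in WT-labelled ones. Its log2 fold change was 0.15 (-0.42 to 0.72) in KO-labelled and 0.08 (-0.38 to 0.54) in WT-labelled cells. For Il10rb the interval was -1.11 to 0.29 and -0.59 to 0.56, and for Ifngr1 -0.68 to 0.34 and -0.56 to 0.27. The adjusted p of these 4 chains was 1 in each genotype, which does not show that they stayed the same.

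**Figure D2:**
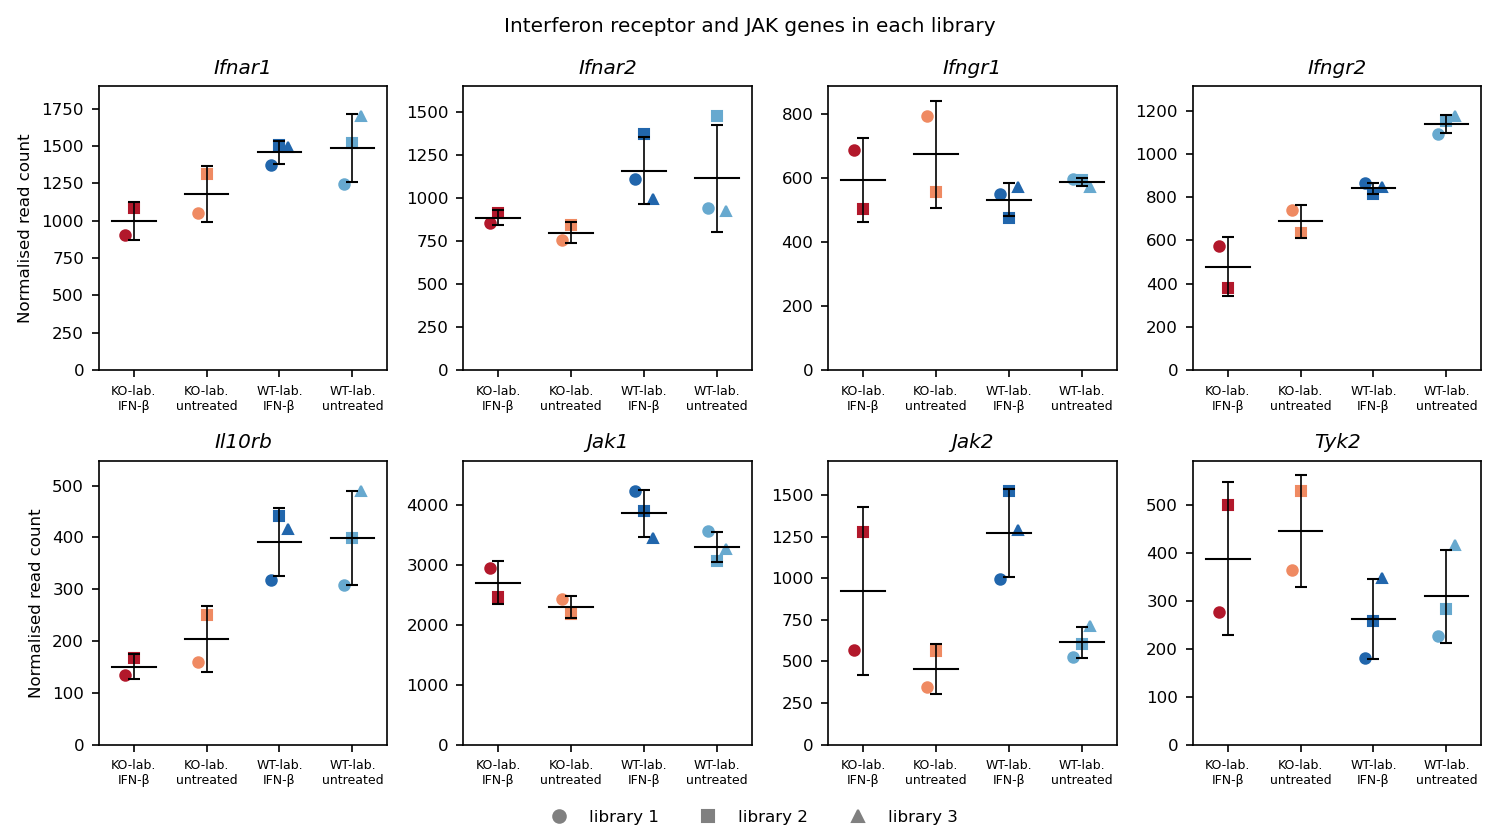
Normalised read counts of the 8 genes in each library, with marker shapes for the replicate number, bars for the group mean and whiskers for the SD (n = 2 for KO-labelled and n = 3 for WT-labelled groups). Jak2 has its higher values in the IFN-β groups, while all KO-labelled libraries lie below all WT-labelled ones for Ifngr2, Il10rb and Jak1.

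The other question was how the members differed between the labelled genotypes. The 4 genes of the chromosome 16 cluster, Jak1 and Jak2 were lower in KO-labelled cells and Tyk2 higher, in every same-numbered pair. There were only 2 such pairs in each treatment, and how many of all genes kept their sign in them was not counted. By limma without the block only Il10rb and Ifngr2 with IFN-β passed the test. With IFN-β, 2 of 8 members were lower and 0 higher, where 6.55% of tested genes passed (3.64% lower). Untreated, 0 of 8 passed, where 6.23% of genes did. There 3 members (Ifngr2, Il10rb and Jak1) had an unadjusted p under 0.05, where 2582 of the 12313 tested genes did. Among untreated libraries edgeR called 0 and DESeq2 called these 3, beside 1513 of all genes by DESeq2. With IFN-β edgeR called 2, and DESeq2 called 3, which adds Jak1 (adjusted p 0.0189), beside 1504 of all genes by DESeq2. With the block, 5 members were lower and 1 higher with IFN-β, where 26% of genes passed (13.3% lower, 12.7% higher), and 4 lower and 1 higher untreated, where 26.6% did (13.1% lower, 13.5% higher). The median log2 fold change of the members was -0.53 with IFN-β and -0.46 untreated, beside 0.00 over all tested genes in both. The cells of the 2 labels differed at many other genes, as these shares show.

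Il10rb had 134 and 168 normalised reads in KO-labelled libraries, against 317, 441 and 417 in WT-labelled ones, with IFN-β. Untreated, it had 159 and 249.7 in KO-labelled libraries, against 307, 398 and 489 in WT-labelled ones. Every KO-labelled library lay below every WT-labelled library. With IFN-β the log2 fold change was -1.36 ± 0.28 (SE), with an adjusted p of 0.0233 (0.000827 with the block), and the ratio of means was 0.385. Untreated it was -0.97 ± 0.28, with an adjusted p of 0.0829 without the block and 0.0048 with it (-0.86 ± 0.15), and 0.0232 to 0.0968 over the 5 other settings. The IFN-β call without the block was lost on leaving out KO-labelled IFN-β library 1 (adjusted p 0.142) or 2 (0.0846) or WT-labelled IFN-β library 2 (0.0893) or 3 (0.0898). With the block, Il10rb passed in both treatments on leaving out any 1 of the 10 libraries.

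Ifngr2 had 575 and 381 normalised reads with IFN-β in KO-labelled libraries, against 865, 815 and 844 in WT-labelled ones, and 741 and 634 against 1089, 1152 and 1173 untreated. Every KO-labelled library lay below every WT-labelled one, and untreated KO-labelled cells were also below IFN-β-treated WT-labelled cells. The log2 fold change with IFN-β was -0.85 ± 0.19 (SE), with an adjusted p of 0.029 (0.0059 with the block). Untreated it was -0.73 ± 0.19, with an adjusted p of 0.0526 without the block, 0.0109 with it and 0.0054 to 0.0601 over the 5 other settings. The IFN-β call without the block was lost on leaving out KO-labelled IFN-β library 2 (adjusted p 0.214), WT-labelled IFN-β library 1 (0.0877), 2 (0.0857) or 3 (0.0976), or WT-labelled untreated library 3 (0.0517). The untreated difference passed on leaving out KO-labelled IFN-β library 1 (0.0278) or 2 (0.0268). The blocked calls were lost on leaving out KO-labelled IFN-β library 2 (0.0669) with IFN-β, and KO-labelled untreated library 1 (0.0554) or 2 (0.0802) when untreated.

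The 2 chains of the type I receptor differed less. With IFN-β, the log2 fold change of KO-labelled over WT-labelled cells was -0.55 ± 0.18 (SE) for Ifnar1, with an adjusted p of 0.11 without the block and 0.0119 with it (-0.49 ± 0.11). KO-labelled libraries, at 906 and 1087, lay below all WT-labelled ones, at 1369.7 to 1509.6. Untreated it was -0.33 ± 0.18 with an adjusted p of 0.334 (0.0921 with the block), and the genotypes overlapped. For Ifnar2 the log2 fold change was -0.38 ± 0.23 with IFN-β, with an adjusted p of 0.405 without the block and 0.0326 with it, and -0.45 ± 0.23 untreated, with 0.314 and 0.0196. Its KO-labelled libraries lay below the WT-labelled ones in both treatments. With the block and any 1 library left out, the log2 fold change was -0.53 to -0.40 for Ifnar1 with IFN-β. For Ifnar2 it was -0.62 to -0.35 with IFN-β and -0.71 to -0.39 untreated. Each blocked call was still lost without some single libraries. That of Ifnar1 with IFN-β was lost without KO-labelled IFN-β library 1 (0.0892) or 2 (0.0928) or WT-labelled IFN-β library 1 (0.0718). That of Ifnar2 with IFN-β was lost without KO-labelled IFN-β library 1 (0.0643) or 2 (0.271), WT-labelled IFN-β library 1 (0.102), 2 (0.0969) or 3 (0.0775), or WT-labelled untreated library 3 (0.0782). That of Ifnar2 untreated was lost when library 1 (0.0524) or 2 (0.167) of the untreated KO-labelled group was left out.

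Ifngr1, the ligand-binding chain of the IFN-γ receptor, is the receptor gene outside the cluster. It had 689 and 503 normalised reads with IFN-β in KO-labelled libraries, against 551, 476 and 573 in WT-labelled ones, and 794 and 556 against 597, 595 and 573 untreated. The genotypes overlapped in both treatments. Its log2 fold change was 0.15 (95% interval -0.32 to 0.61) with IFN-β and 0.18 (-0.29 to 0.64) untreated, with adjusted p of 0.762 and 0.706 and no call with the block.

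Of the kinases, Jak1 was lower and Tyk2 higher in KO-labelled cells once replicate numbers were blocked. Jak1 had 2953 and 2455 normalised reads in KO-labelled libraries, against 4229, 3900.0 and 3442 in WT-labelled ones, with IFN-β, and 2430.3 and 2173 against 3569, 3071 and 3271 untreated. Every KO-labelled library lay below every WT-labelled one. The log2 fold change was -0.51 ± 0.15 (SE) with IFN-β, with an adjusted p of 0.0827 without the block and 0.0048 with it, and -0.52 ± 0.15 untreated, with 0.0769 and 0.0046. Over the 5 other settings its adjusted p was 0.0189 to 0.102 with IFN-β and 0.0187 to 0.0962 untreated. The blocked call with IFN-β was lost on leaving out library 2 of treated KO-labelled cells (0.0681). The untreated one held on leaving out any 1 of the 10 libraries.

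Tyk2 had 276 and 500.3 normalised reads with IFN-β in KO-labelled libraries, against 180.2, 258 and 348 in WT-labelled ones, and 364 and 529 against 227, 284 and 417 untreated. The genotypes overlapped in both treatments, with library 2 above library 1 in all 4 groups. Within a number, KO-labelled libraries were higher by 0.61 and 0.95 on the log2 scale with IFN-β and by 0.68 and 0.90 untreated. The log2 fold change was 0.55 ± 0.38 (SE) with IFN-β and 0.55 ± 0.38 untreated without the block, with adjusted p of 0.475 and 0.478. With the block it was 0.79 ± 0.15 and 0.78 ± 0.15, with adjusted p of 0.007 and 0.0071. The call with IFN-β was lost on leaving out library 2 (0.0993) of the treated KO-labelled cells, and the untreated call on leaving out library 2 (0.0576) of the untreated ones. Jak2 overlapped between the genotypes in both treatments, with log2 fold changes of -0.55 (95% interval -1.36 to 0.25) with IFN-β and -0.47 (-1.27 to 0.34) untreated. Within a number the log2 difference of KO-labelled minus WT-labelled libraries was -0.81 and -0.25 with IFN-β and -0.60 and -0.11 untreated, and with the block its adjusted p was 0.103 and 0.168.

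Genotypes did not overlap for 5 of 8 members with IFN-β (Ifnar1, Ifnar2, Ifngr2, Il10rb and Jak1) and for 4 of 8 untreated (Ifnar2, Ifngr2, Il10rb and Jak1). Over all tested genes 40.5% with IFN-β and 31.6% untreated did not overlap, the level against which these counts stand.

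**Figure D3:**
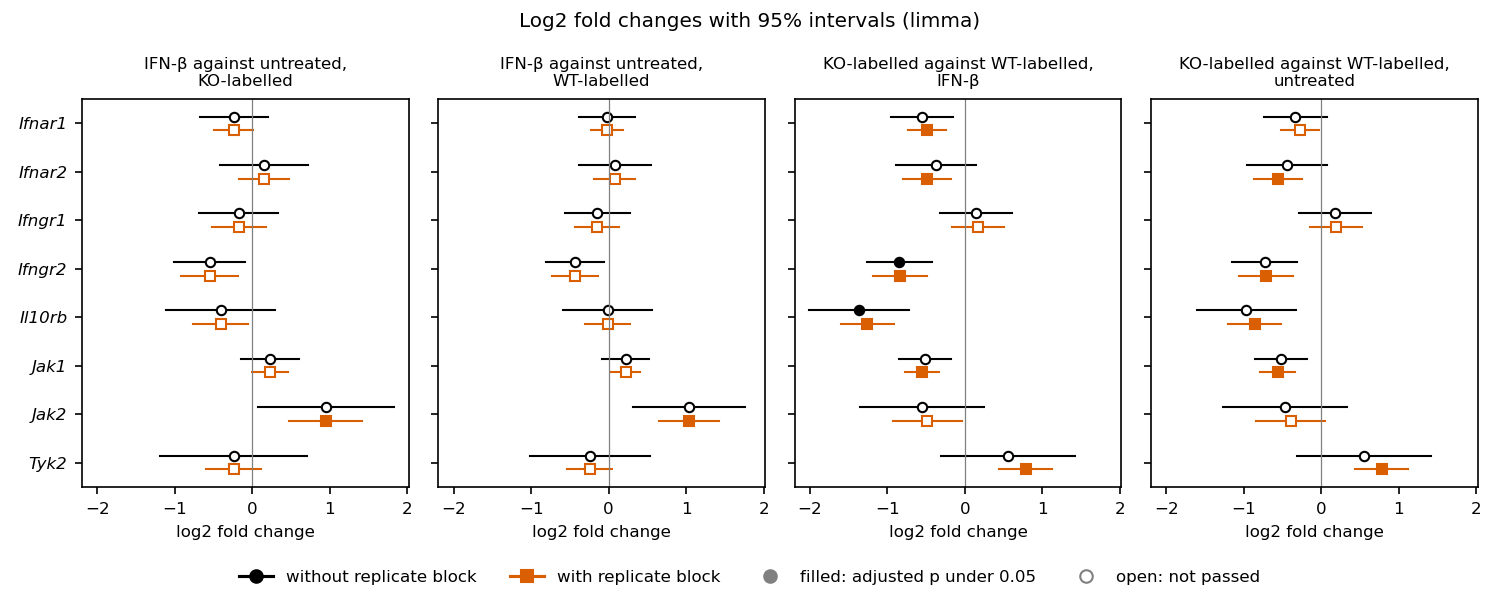
Log2 fold changes of the 8 genes in the 4 comparisons with 95% intervals, from limma without the replicate block (circles) and with it (squares), filled where the adjusted p is under 0.05. Blocking narrows the intervals, and Jak2 with IFN-β and Tyk2 between genotypes pass only with it.

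The IFN-β response of the members was not shown to differ between the genotypes. The interaction term, the response in KO-labelled minus that in WT-labelled cells, was between -0.40 (Il10rb) and 0.07 (Ifnar2) on the log2 scale, and the 95% intervals of the 8 genes reached from -1.30 to 1.23. The lowest unadjusted p was 0.349 (limma), and 0 members passed with or without the block and by edgeR or DESeq2. Over all genes 0% passed by limma, and edgeR called 0 and DESeq2 called 1. At an unadjusted p under 0.05 (limma) there were 36 of 12313 genes without the block and 151 with it. Each is under the share of 0.05 that arises where no gene differs, so these p-values are conservative. The 0 calls thus do not show equal responses. For Jak2 the term was -0.09 (-1.22 to 1.05), so a response that differs between genotypes by a doubling would fall within this interval. For Slfn2, the targeted gene, it was -3.35 ± 0.50 (SE) with an adjusted p of 1.

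Members also differed between replicate numbers. In all 4 groups, library 2 had more Ifnar1, Ifnar2, Il10rb, Jak2 and Tyk2 than library 1, by up to 1.17 on the log2 scale for Jak2 and 0.86 for Tyk2. In all 4 groups it had less Ifngr1 and Jak1, by up to 0.51 and 0.27. Ifngr2 was higher in library 2 in 1 of 4 groups. The labels do not say what a number marks, and what the libraries of a number share was not tested.

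Since 4 of the members are neighbours, the genes around them were set beside them. Within 500 kb of the cluster, 8 other genes were tested, and 0 passed in either genotype comparison without the block, where 6.55% (IFN-β) and 6.23% (untreated) of genes did. Of the 8, 3 and 2 had an unadjusted p under 0.05, where 2580 and 2582 of the 12313 tested genes did. There edgeR called 0, while DESeq2 called Gart in both treatments and Itsn1 with IFN-β. Their median log2 fold change was -0.25 with IFN-β and -0.17 untreated, against -0.70 and -0.59 for the 4 receptor genes and 0.09 and 0.08 for the other 336 tested genes of chromosome 16. The neighbours lay on both sides of 0, with 6 (IFN-β) and 5 (untreated) of the 8 below it. Of the 12313 tested genes, 6161 and 6097 were below 0. Tmem50b, the next gene after Ifngr2 and a membrane protein gene, was at -0.71 with IFN-β and -0.67 untreated (adjusted p 0.219 and 0.246, with the block 0.0095 and 0.0118). Gart, an enzyme of purine synthesis, was at -0.37 and -0.39 (0.138 and 0.119, with the block 0.0215 and 0.0168). Donson, a DNA replication factor, was at 0.45 and 0.36 (0.242 and 0.363, with the block 0.0298 and 0.0578), and Son, a splicing factor gene, at -0.06 and 0.05. With the block Dnajc28 also passed, higher in both treatments, as did Itsn1, an endocytic adaptor gene, lower with IFN-β. In total, 3 of the 8 neighbours were lower and 2 higher with the block and IFN-β, where 13.3% and 12.7% of genes were. Untreated, 2 were lower and 1 higher with the block, where 13.1% and 13.5% of genes were. Each blocked call of a neighbour was lost without at least 1 KO-labelled library of its treatment. Olig1 and Olig2, the brain transcription factor genes on the other side, were listed but not tested.

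**Figure D4:**
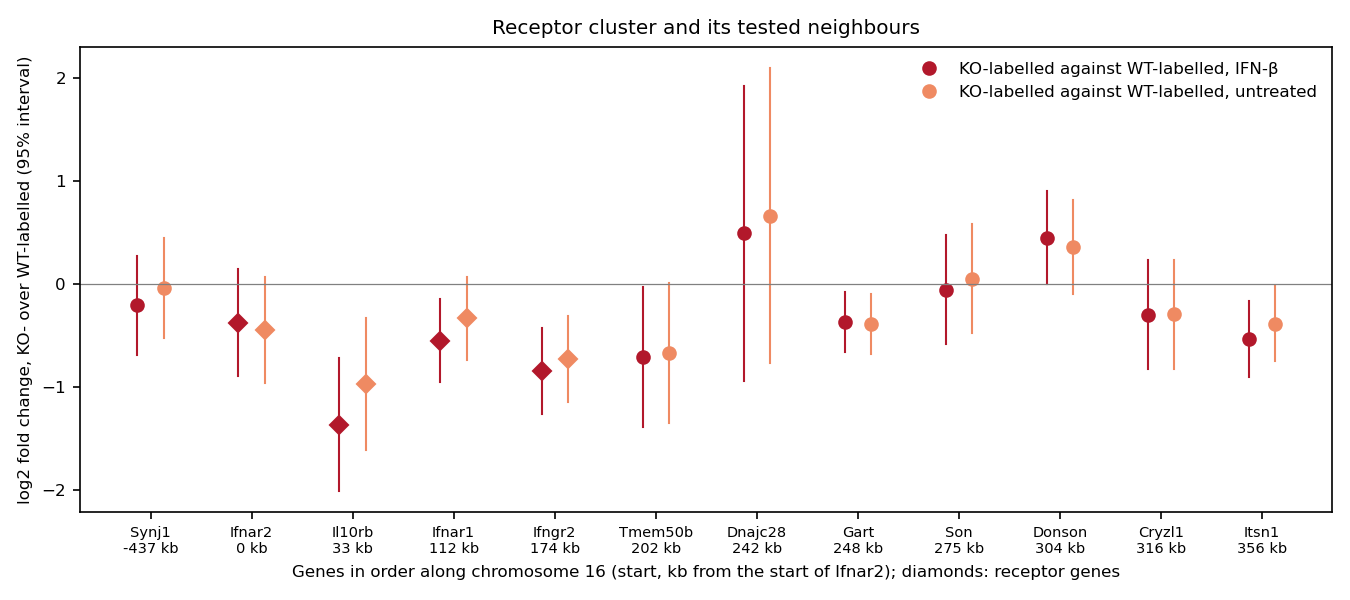
Log2 fold change of KO-labelled over WT-labelled cells with 95% interval (limma) for the 4 receptor genes (diamonds) and the 8 tested neighbours (circles), placed in their order along chromosome 16. The receptor genes are all below 0, as are 6 (IFN-β) and 5 (untreated) of the 8 neighbours. The intervals of Ifnar2 in both treatments and of Ifnar1 untreated reach across 0.

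The rest of the pathway was read from lists of genes by role. Of 11 interferon ligand genes, 9 were listed under these symbols, none passed the filter, and each had 0 to 4 reads in all 10 libraries together. Endogenous Ifnb1 had 1 read in all. Below the receptor, 2 of 6 tested STAT and ISGF3 genes rose with IFN-β in each genotype, Stat2 and Irf9, which are both parts of ISGF3. Of all tested genes 1.84% (KO-labelled) and 2.21% (WT-labelled) passed. Stat2 averaged 6018 against 178 normalised reads in KO-labelled cells (log2 fold change 5.26 ± 0.52, SE, adjusted p 0.000506) and 3462 against 183 in WT-labelled cells (4.31 ± 0.42, 0.000371), IFN-β against untreated. Irf9 was up by 3.35 ± 0.27 (0.000154) and 3.02 ± 0.22 (6.5e-05). These log2 changes of the targets exceed that of any member. Between genotypes 0 of 6 passed in either treatment, where 6.55% (IFN-β) and 6.23% (untreated) of all genes did. In each treatment 1 of the 6 had an unadjusted p under 0.05, and edgeR and DESeq2 called 0. With the block Stat3 passed, lower in KO-labelled cells in both treatments (-0.47 with IFN-β, adjusted p 0.006, and -0.44 untreated, 0.0077), as did Stat6 (0.0321 and 0.0243), at a mean of 8.27 to 13.7 normalised reads against 68.7 to 74.4. The block also called Stat5b higher in untreated KO-labelled cells (adjusted p 0.0453) and, for IFN-β in the WT-labelled group, Stat3 higher (0.0163). The blocked genotype calls of Stat3 were lost without either KO-labelled library of the treatment (up to 0.0774), its IFN-β call without 5 of the 6 WT-labelled libraries, all but untreated 2 (up to 0.111), that of Stat5b in 8 of 10 cases (all but WT-labelled untreated 1 and KO-labelled IFN-β 1), and those of Stat6 in 5 (IFN-β) and 4 (untreated) of 10.

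Of 18 tested inhibitors of the receptors and kinases, 2 rose with IFN-β in each genotype, where 1.84% (KO-labelled) and 2.21% (WT-labelled) of all genes passed. Usp18, which displaces Jak1 from Ifnar2, averaged 6650.0 against 0.995 normalised reads in KO-labelled and 5062 against 7.97 in WT-labelled cells (log2 fold change 9.94 ± 0.74, SE, adjusted p 6.9e-05). The WT-labelled fold rests on few untreated reads: it was 10.99 without WT-labelled untreated library 1, 9.25 without library 2, and 8.92 to 9.94 over the 5 other settings. The untreated KO-labelled libraries held 2 Usp18 reads in all, so the fold there is known only as a ratio of 6410 per total reads with a 95% counting interval of 1770 to 52900. Socs1, an inhibitor that binds JAKs directly, was up by 3.15 in KO-labelled and 2.15 ± 0.19 in WT-labelled cells. With the block Socs2, an inhibitor of growth hormone signalling, also rose in WT-labelled cells (1.44, adjusted p 0.0027, and 0.226 without the block) and passed with any 1 of the 10 libraries left out. Between genotypes 1 of 18 passed, where 6.55% (IFN-β) and 6.23% (untreated) of all genes did: Socs3, the inhibitor of gp130-type receptors, which averaged 359.5 against 1300.0 normalised reads with IFN-β and 241 against 1044 untreated in KO-labelled against WT-labelled cells. Its log2 fold change was -1.81 ± 0.39 (SE, adjusted p 0.0263) with IFN-β and -1.99 ± 0.39 (0.0177) untreated. The IFN-β call was lost without KO-labelled IFN-β library 1 (0.111) or 2 (0.139) or WT-labelled IFN-β library 2 (0.0902) or 3 (0.0673), and the untreated one when missing KO-labelled untreated library 1 (0.08) or 2 (0.076) or WT-labelled untreated library 3 (0.0623). With the block both calls of Socs3 held without any 1 library. The block further called Socs6 lower (adjusted p 0.0077 with IFN-β and 0.011 untreated), Pias4 higher untreated (0.0272) and Socs1 higher with IFN-β (0.012), which DESeq2 called as well. Those of Socs6 were lost without either KO-labelled library of the treatment (up to 0.105), that of Pias4 in 5 of 10 cases, and that of Socs1 without KO-labelled IFN-β library 1 or 2 or WT-labelled IFN-β library 1 (up to 0.0895). Of 14 tested genes for receptor turnover and partners, among them the ubiquitin ligase subunit Btrc and the chaperone Hsp90ab1, 0 passed in any of the 4 comparisons (limma). Over all tested genes 1.84% to 6.55% passed in these comparisons, so 0 of 14 does not show that these genes stayed the same. At most 1 of the 14 had an unadjusted p under 0.05 in each comparison. There edgeR called 0, and DESeq2 called 1, the methyltransferase gene Prmt1, as lower in KO-labelled cells in both treatments, as did the block (0.0129 with IFN-β, lost in 3 of 10 omissions of a library, and 0.0066 untreated, lost without KO-labelled untreated library 2).

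Further receptor chains that use these kinases, or belong to the same family, were read in the same way. Of the class II cytokine receptor family and the remaining kinase Jak3, 3 of 7 listed genes were tested: F3, Il20rb and Jak3. Il10ra, the ligand-binding partner of Il10rb for IL-10, and Il22ra1, its partner for IL-22, had 0 reads in all 10 libraries, and the symbol Il28ra, an older name of the type III interferon chain Ifnlr1, was also at 0. F3, tissue factor, was higher untreated in KO-labelled cells, at a mean of 3876 against 917 normalised reads (log2 fold change 2.28 ± 0.55, SE, adjusted p 0.0426), and kept this call on leaving out 2 of the 10 libraries, number 1 of either WT-labelled group (adjusted p up to 0.189 for the other 8, and 0.0652 by edgeR). With the block F3 was higher in both treatments (adjusted p 0.0148 with IFN-β and 0.0062 untreated), as was Jak3, the kinase of the common γ chain. For Jak3 the blocked log2 fold change was 0.98 (adjusted p 0.0068) with IFN-β and 0.73 (0.022) untreated. Without the block Jak3 was at 0.89 (adjusted p 0.47) and 0.64 (0.628). Il20rb, a chain of the IL-20 receptors, was lower untreated with the block (adjusted p 0.0367). The blocked call of Jak3 with IFN-β was lost without KO-labelled IFN-β library 2 (0.0777), its untreated one in 3 of 10 cases and that of Il20rb in 5. Of 11 tested receptors that signal through Jak1, Jak2 or Tyk2, IFN-β raised 2 in KO-labelled cells, where 1.84% of all genes passed. Osmr, the oncostatin M receptor chain, averaged 2694 against 1232 normalised reads (adjusted p 0.0374) and Il13ra1, the chain for IL-13, 3374 against 918 (0.0464). Osmr passed in 3 of 10 cases with 1 library left out, those of WT-labelled IFN-β 2 and 3 and WT-labelled untreated 2, with adjusted p up to 0.338 in the others. Il13ra1 passed in 2 of 10, those of KO-labelled IFN-β 1 and KO-labelled untreated 2, with adjusted p up to 0.394 in the others and 0.0592 by edgeR. In WT-labelled cells their adjusted p was 0.0716 and 0.0689 (0.000595 and 0.0007 with the block). There limma called 0 of the 11, where 2.21% of all genes passed, and edgeR also called 0. DESeq2 called 3, Il13ra1, Osmr and Lifr, the receptor chain for leukemia inhibitory factor. Between genotypes Il2rg, the common γ chain, was lower with IFN-β (0.911 against 22.6 normalised reads, adjusted p 0.0203) and untreated (0.524 against 20.1, 0.0174). On 2 against 69 and 1 against 59 reads the ratio was 0.0418 (95% counting interval 0.00497 to 0.157) and 0.0241 (0.000601 to 0.14). The call with IFN-β was lost on leaving out KO-labelled IFN-β library 1 (0.129) or WT-labelled IFN-β library 2 (0.0589) or 3 (0.0796), and the untreated call on leaving out KO-labelled untreated library 2 (0.118) or WT-labelled untreated library 2 (0.0551) or 3 (0.0706). Il13ra1 was lower untreated (918 against 2359, -1.44 ± 0.35, 0.046). This call was kept on leaving out KO-labelled IFN-β library 1 or 2 or KO-labelled untreated library 2, with adjusted p up to 0.2 without each other library, 0.0517 without the low-count filter and 0.0628 by edgeR. Of the 11, 1 was lower with IFN-β and 2 untreated, where 6.55% and 6.23% of all genes passed. With the block 5 were lower in each treatment, where 13.3% and 13.1% of genes were: Il2rg, Il13ra1, Osmr (adjusted p 0.0057 with IFN-β and 0.000617 untreated), Lifr (0.0025 and 0.0167) and Il4ra, the IL-4 receptor chain (0.0099 and 0.0133). The blocked calls of Osmr, Il13ra1 and Il2rg held without any 1 library when untreated, as did that of Lifr with IFN-β. Those with IFN-β were lost without KO-labelled IFN-β library 2 for Osmr (0.0672) and library 1 for Il13ra1 (0.0771) and Il2rg (0.0566), that of Lifr untreated without either untreated KO-labelled library (up to 0.106), and those of Il4ra without library 2 of either genotype in the same treatment (up to 0.132).

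The genes with the most similar pattern to each member over the 10 libraries (Pearson r of log2 values) were found as a description. The libraries share 4 groups and 3 replicate numbers, so high values of r are common. For Il10rb they were Sik1 (0.987), Adamts7 and Add3 (0.985 each), for Ifngr2 Pank2 (0.984), Ncrna00086 and Oat (0.98 each), and for Ifnar1 Ubqln2 (0.977), Il10rb (0.974) and Vangl2 (0.971). For Jak1 they were Nfkbiz (0.975), Cab39 (0.973) and Samd4b (0.971), for Tyk2 Pdk4 (0.972), Gbe1 (0.968) and Gxylt2 (0.964), and for Jak2 Mkx (0.969), Spats2l (0.962) and Car13 (0.958). For Ifngr1 they were Birc5 (0.967), Armc6 and Srp19 (0.964 each), and for Ifnar2, with the lowest values, Sbno2 (0.944), Sema6a (0.942) and P2rx3 (0.94). A member was thus among the 3 closest genes of another member once, Il10rb for Ifnar1.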

How the data were processed

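Per the series' design text, directional libraries were made from total RNA with a stranded kit. Per the submitters' processing notes, cutadapt 1.13, STAR 2.5.2a, HTSeq and DESeq2 were used with the genome build mm10. The annotation, the strand setting and the role of each tool are not given in the sources used here. The deposited values are a signal, that is gene read counts the authors divided by a size factor per library. All values (100%) were multiples of the worth of 1 read, within 0.001 reads, with 1 read worth 0.911 to 1.10, and the recovered reads set the depth. A floor of 3 reads equals 2.73 to 3.29 normalised reads. Counting intervals and floors cover counting error only. The plan named limma for scaled values and an edgeR count test only for raw counts. The unit is not a raw count, so limma is the reported test.

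R 4.3.3 and limma 3.58.1 (limma-trend) were used to test log2 of the value plus a pseudocount of 1, a scale that understates changes of low genes, with 4 group means over all 10 libraries. Genes passed filterByExpr of edgeR 4.0.16 (minimum count 10), which left 12313. A gene passed at a two-sided Benjamini-Hochberg adjusted p under 0.05, adjusted over all tested genes, and adjusted p-values are from limma unless another tool is named. The steps were tested on simulated data. Alternatives were a replicate block, a pseudocount of 5, no filter, TMM scaling, edgeR, DESeq2 (1.42.0) and each library left out. The block with each library left out was added after seeing the data. Leaving out a library without the block also changes the balance of replicate numbers.

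Replicate numbers come from the sample titles. Deviations from group means correlated at 0.48 to 0.87 in the 13 same-numbered pairs of libraries from different groups, and at most 0.32 in the 24 other pairs, so the numbers pair the samples. The deviations in a group sum to 0, and in a group of 2 libraries they mirror each other. The pairs are therefore not independent, and low or negative values in the other pairs are partly forced. Replicates of a group differed by more than sampling noise. Exon lengths and positions are from GENCODE M21, which matched 20953 of 23337 symbols. Named genes are the 8 members, Slfn2 and Ifit1, the 3 genes most like each member, up to 4 passing genes of each list, and a few neighbours, lower-placed list genes and markers chosen after their values were seen. The members and lists were chosen with earlier results of these data known. A gene of the STAT and ISGF3 list is not reported here and not counted in it.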

Additional observations from a re-analysis of the deposited data

How the results depend on the processing

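The block raised the genes that passed to 609 (IFN-β, WT-labelled), 429 (IFN-β, KO-labelled), 3203 (genotype, IFN-β) and 3275 (genotype, untreated), and the members to 1, 1, 6 and 5. It changed no other call of a member than those given above. DESeq2 gave 410 genes for IFN-β in WT-labelled cells, 1504 and 1513 for genotype with IFN-β and untreated, 1 for the interaction, and 3 members in each genotype comparison, and TMM scaling 1 member untreated (Ifngr2). A pseudocount of 5, no filter and edgeR moved no count of members. Under TMM scaling the interaction turned to -0.00018 for Jak1 and -0.0029 for Tyk2. The cause of these shifts was not tested.

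Leaving out 1 library gave 134 to 218 genes for IFN-β in KO-labelled cells, 286 to 849 for genotype with IFN-β and 340 to 694 untreated, with 0 to 2 and 0 to 1 members. The lowest counts came without KO-labelled IFN-β library 2 (134 and 286) and KO-labelled untreated library 2 (340). With the block the ranges were 269 to 552 and 363 to 592 genes for IFN-β in KO- and WT-labelled cells (0 to 1 member each), 1214 to 4464 and 1252 to 3274 for genotype with IFN-β and untreated (2 to 7 and 2 to 6 members), and 0 to 4 for the interaction. Log2 fold changes that changed sign without passing ranged, for IFN-β in KO-labelled cells, from -0.43 to 0.082 (Ifngr1) and -0.67 to 0.19 (Tyk2). In WT-labelled cells they ranged from -0.14 to 0.080 (Ifnar1), -0.049 to 0.30 (Ifnar2) and -0.19 to 0.15 (Il10rb). For genotype they ranged from -0.080 to 0.37 (Ifngr1, IFN-β), -0.081 to 0.43 (Ifngr1, untreated) and -1.14 to 0.032 (Jak2, IFN-β). Interactions ranged from -0.15 to 0.20 (Ifnar2), -0.29 to 0.23 (Ifngr1), -0.41 to 0.18 (Ifngr2), -0.13 to 0.14 (Jak1), -0.67 to 0.50 (Jak2) and -0.42 to 0.43 (Tyk2).

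With 2 KO-labelled libraries a group, single libraries decide several calls. Each member had at least 127 reads in every library.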
